A study of Mus musculus with 6 samples.

Results

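Mitochondrial ribosomal protein genes, the nuclear *Mrpl* and *Mrps* genes, were examined in the hippocampus of mice lacking maternal *Ube3a*. The genes were taken by symbol alone, as every gene named *Mrpl* or *Mrps* followed by a number and at most 1 letter, and 78 of the 25239 genes listed in the counts fitted this rule. Hippocampal RNA was sequenced from 3 wild-type Ube3a m+/p+ (WT) mice and 3 Ube3a m-/p+ mice, with 1 library per mouse. All mice were male, 6 to 8 weeks old and of the C57BL/6 strain. In Ube3a m-/p+ mice the maternal copy of *Ube3a*, an E3 ubiquitin ligase gene, is inactive and the paternal copy is intact, as in Angelman syndrome. The paternal copy is silent in most neurons and active in many other cells, so these mice model loss of UBE3A mainly in neurons.

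The mitochondrial ribosome translates the few messenger RNAs of the mitochondrial genome, all of which encode subunits of the respiratory chain and ATP synthase. Its ribosomal RNAs come from mitochondrial DNA, whereas every one of its proteins is encoded in the nucleus, made in the cytosol and imported. Some of the proteins have counterparts in the bacterial ribosome and others are particular to mitochondria, and neurons depend on this machinery because synaptic activity draws heavily on oxidative phosphorylation.

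Of the 78 genes, 51 encode large-subunit proteins and 26 small-subunit proteins. The remaining gene, *Mrps36*, carries the family name, but its product is an adaptor of the 2-oxoglutarate dehydrogenase complex rather than a ribosomal protein. *Mrps30* and *Mrps18a* were counted with the large subunit, where their proteins reside. Bacterial counterparts are known for 46 of the proteins, and 31 are particular to mitochondria. No gene of the mitochondrial genome is listed in the counts under a symbol starting with mt-, so the ribosomal RNAs and messenger RNAs of the mitochondrion were not analysed here.

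The libraries held 7293272 to 8675252 counts on genes in WT mice and 8871052 to 11314409 in Ube3a m-/p+ mice. *Ube3a* itself was measured at 104, 141 and 151 CPM (counts per 1000000 gene counts of the library) in WT mice and at 96.8, 82.9 and 80.6 CPM in Ube3a m-/p+ mice. The genotypes did not overlap, and the log2 fold change was −0.58 ± 0.12 (SE, adjusted p = 0.0363 by edgeR's quasi-likelihood test). The association of counts with GC content differed between the libraries. Spearman's correlation across genes between GC content and a gene's deviation from its mean over the libraries was 0.0455, −0.506 and −0.571 for WT mice 1, 2 and 3. For Ube3a m-/p+ mice 1, 2 and 3 it was 0.0588, 0.526 and 0.528. WT mice 2 and 3 and Ube3a m-/p+ mice 2 and 3 therefore lay at opposite ends, and the mice numbered 1 lay together near 0. A per-library correction for GC content and transcript length brought *Ube3a* to −0.20 (adjusted p = 0.24, edgeR). Its call was also lost without any 1 of the 4 mice numbered 2 and 3 (adjusted p = 0.142 to 0.251, edgeR), where 0 to 2 of all genes were called.

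Every one of the 78 genes was detected in every library, with 43 to 2252 counts per gene and library. All 78 passed the filter on low counts that left 14445 genes for testing. Their mean level ranged from 7.29 to 178 CPM, with a median of 23.3 CPM. Per kilobase of the longest coding transcript the levels ran from 2.85 to 49.6 CPM, with a median of 15.9. *Mrps21*, a small-subunit protein with a bacterial counterpart, had the highest level per kilobase, at 49.6 CPM. It was followed by *Mrpl41*, *Mrpl48* and *Mrpl42*, all mitochondrion-specific large-subunit proteins, at 42.4, 41.4 and 37.0 CPM per kilobase. The lowest levels per kilobase belonged to *Mrpl32*, *Mrpl17*, *Mrps35* and *Mrpl47*, at 3.81, 3.57, 2.90 and 2.85 CPM per kilobase. *Mrpl41*, *Mrpl42*, *Mrpl48* and *Mrps21* all have a pseudogene copy, so their levels are uncertain to the extent that reads are shared.

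The summed level of the 78 genes was 1976, 1944 and 1956 CPM for WT mice 1, 2 and 3. It was 2019, 2149 and 2231 CPM for Ube3a m-/p+ mice 1, 2 and 3. All Ube3a m-/p+ libraries lay above all WT libraries, but Ube3a m-/p+ mouse 1 lay near the WT range and the other 2 mice carried most of the difference. The means were 1959 ± 16.2 CPM in WT and 2133 ± 107 CPM in Ube3a m-/p+ mice (SD, n = 3 each), a ratio of 1.09. The transcripts took 0.194% to 0.198% of gene counts in WT and 0.202% to 0.223% in Ube3a m-/p+ mice. In bulk tissue, a change in RNA per cell and a change in the share of a cell type cannot be told apart.

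The same ordering of mice appeared gene by gene. Of the 78 genes, 28, 20 and 27 lay above their mean over the 6 libraries in WT mice 1, 2 and 3, against 37, 57 and 65 for Ube3a m-/p+ mice 1, 2 and 3. In Ube3a m-/p+ mouse 1, 25 genes exceeded every WT mouse and 12 lay under every WT mouse. In mouse 2 these numbers were 42 and 9, and in mouse 3 they were 44 and 7. The shares over all genes tested were not computed for the counts in this paragraph. The counts therefore cannot be read as particular to the 78 genes.

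Calls required a fold change above 1.2 and a p below 0.05 after Benjamini-Hochberg adjustment over all genes tested. By this rule *Mrps21* was called higher in Ube3a m-/p+ mice and no *Mrpl* or *Mrps* gene was called lower, while 1.02% of all genes tested were called higher and 0.990% lower. Counts of calls moved with the mice used, for all genes as for these. Without WT mouse 1, 13 of the 78 genes (16.7%) were called, against 17.6% of all genes tested, and without Ube3a m-/p+ mouse 1 also 13, against 12.5%. Without any other single mouse none of the 78 was called in edgeR, and 0 to 2 of all genes were called. In those fits 10 to 14 of the 78 were higher and 0 to 2 lower at an unadjusted p below 0.05. The share of all genes at that unadjusted p was not computed for those fits. With every mouse kept, 21 of the 78 genes were higher and 1, *Mrpl3*, was lower at an unadjusted p below 0.05 in edgeR. Across all genes tested 12.2% were higher and 12.4% lower at that threshold. The values of 19 genes were higher in every Ube3a m-/p+ mouse than in every WT mouse, and those of 2 genes, *Mrpl3* and *Mrpl50*, were lower in every one. Over all genes tested the share without overlap was 10.8% higher and 14.2% lower. The other 57 genes overlapped between the genotypes.

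Across the 78 genes the log2 fold changes (Ube3a m-/p+ over WT) ranged from −0.30 to 0.68 with a median of 0.155, against a median of 0.003 over all genes tested. They were positive for 62 genes and negative for 16. The median standard error of a single gene was 0.13, close to the median change. A fold change above 1.2 in either direction was measured for 29 genes.

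**Figure D1:**
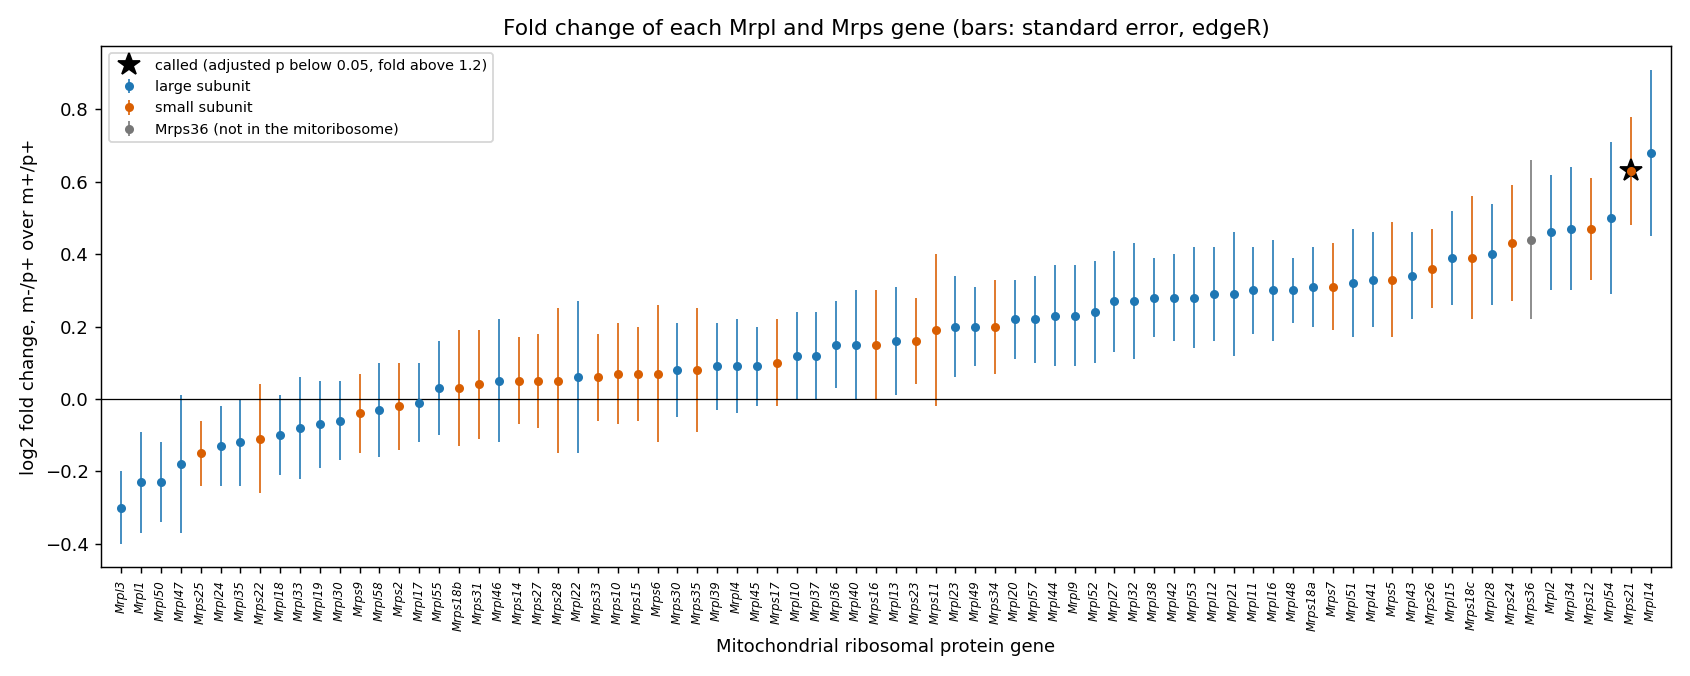
The log2 fold change (y axis, Ube3a m-/p+ over Ube3a m+/p+) is plotted for each of the 78 genes (x axis, ordered by value), with bars giving the standard error from edgeR, colours marking the subunit and a star marking the called gene. The points run from −0.30 for *Mrpl3* to 0.68 for *Mrpl14*, 62 lie above 0, and *Mrps21* is the only gene with the star.

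Among small-subunit genes, *Mrps21* had the largest change. It was measured at 24.4, 17.4 and 15.6 CPM in WT mice and at 27.4, 29.6 and 30.8 CPM in Ube3a m-/p+ mice. The 3 Ube3a m-/p+ mice were close to each other and above every WT mouse, of which WT mouse 1 was the highest. The means were 19.1 ± 4.63 and 29.3 ± 1.73 CPM (SD, n = 3 each), with a log2 fold change of 0.63 ± 0.15 (SE, adjusted p = 0.0433, edgeR). After the GC and length correction the log2 fold change was 0.40 (adjusted p = 0.112, edgeR), no longer past the threshold. Without WT mouse 1 or Ube3a m-/p+ mouse 1 it was 0.84 and 0.68 (adjusted p = 0.00163 and 0.0168, edgeR). Without any 1 of the 4 mice numbered 2 and 3 it was 0.50 to 0.63, and the call was lost (adjusted p = 0.156 to 0.259, edgeR). *Mrps21* lies at chr3:95862634-95871519 (mm10, minus strand), and the pseudogene *Gm6181* matches 264 bp of its transcript at 97.35% identity.

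*Mrps12* encodes a protein of the decoding centre, whose bacterial counterpart is the classic site of streptomycin resistance. Its levels were 19.6, 18.2 and 16.0 CPM in WT mice and 21.4, 22.9 and 29.1 CPM in Ube3a m-/p+ mice. The genotypes did not overlap, with mouse 3 the highest, and the log2 fold change of 0.47 ± 0.14 missed the threshold (adjusted p = 0.0746, edgeR). After the correction it was 0.18.

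*Mrps18c* encodes a small-subunit protein related to bacterial S18. It was measured at 11.7, 11.1 and 13.3 CPM in WT mice and at 13.8, 13.8 and 18.8 CPM in Ube3a m-/p+ mice, so that the lowest Ube3a m-/p+ values lay just above WT mouse 3. Its log2 fold change was 0.39 ± 0.17 (adjusted p = 0.166, edgeR), and 0.40 after the correction. *Mrps26*, a mitochondrion-specific protein, was measured at 39.8, 35.8 and 34.0 CPM in WT mice and at 40.4, 50.3 and 47.9 CPM in Ube3a m-/p+ mice. WT mouse 1 and Ube3a m-/p+ mouse 1 nearly met, and the log2 fold change was 0.36 ± 0.11 (adjusted p = 0.0799, edgeR) before and 0.37 after the correction.

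Of the large-subunit genes none was called. *Mrpl34*, which encodes a short basic protein with a bacterial counterpart, was measured at 12.1, 8.99 and 8.50 CPM in WT mice and at 14.3, 13.4 and 12.8 CPM in Ube3a m-/p+ mice. The groups were separate, WT mouse 1 being closest to the Ube3a m-/p+ mice. Its log2 fold change was 0.47 ± 0.17 (adjusted p = 0.114, edgeR) and 0.13 after the correction.

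*Mrpl15*, also conserved from bacteria, was measured at 16.7, 16.0 and 14.7 CPM in WT mice and at 19.8, 19.4 and 22.3 CPM in Ube3a m-/p+ mice. The groups were separate and the spread within each was small. The log2 fold change was 0.39 ± 0.13 (adjusted p = 0.0911, edgeR). Its longest transcript has a GC content of 40.0% and a length of 4600 bases, and after the correction the log2 fold change was 0.65 (adjusted p = 0.0225, edgeR), which made *Mrpl15* the only one of the 78 genes called in the corrected fit.

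*Mrpl48*, which had the most counts of the 78 genes, was measured at 178, 157 and 146 CPM in WT mice and at 180, 199 and 205 CPM in Ube3a m-/p+ mice. WT mouse 1 and Ube3a m-/p+ mouse 1 were nearly equal and the other mice of each genotype lay further apart. The log2 fold change was 0.30 ± 0.09 (adjusted p = 0.0756, edgeR) and 0.41 after the correction (adjusted p = 0.0873, edgeR). Exons of *Rab6a* cover 708 bp of *Mrpl48* on the opposite strand. *Mrpl41*, at 34.5, 26.6 and 26.9 CPM in WT mice and 31.3, 39.8 and 38.1 CPM in Ube3a m-/p+ mice, overlapped between the genotypes because of the mice numbered 1. *Mrpl42* did not, at 23.2, 23.1 and 21.0 CPM against 24.6, 28.6 and 27.4 CPM. Their log2 fold changes were 0.33 ± 0.13 and 0.28 ± 0.12, with adjusted p of 0.139 and 0.163 in edgeR, and 0.14 and 0.44 after the correction.

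*Mrpl14* and *Mrpl54*, chosen after their values were seen, had the largest changes among large-subunit genes. *Mrpl14*, a protein of the subunit interface, was measured at 6.60, 5.88 and 7.40 CPM in WT mice and at 6.99, 13.3 and 10.8 CPM in Ube3a m-/p+ mice. Ube3a m-/p+ mouse 1 fell inside the WT range, and the log2 fold change was 0.68 ± 0.23 (adjusted p = 0.0897, edgeR). *Mrpl54* was measured at 11.9, 7.15 and 10.1 CPM in WT mice and at 9.92, 15.6 and 15 CPM in Ube3a m-/p+ mice, again with Ube3a m-/p+ mouse 1 inside the WT range. Its log2 fold change was 0.50 ± 0.21 (adjusted p = 0.158, edgeR), and after the correction the values were 0.30 for *Mrpl14* and 0.11 for *Mrpl54*. The transcripts of these genes are among the richest in GC of the 78, at 59.4% and 60.4%.

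*Mrpl3* and *Mrpl50* were the genes whose values were lower in all Ube3a m-/p+ mice. *Mrpl3*, whose bacterial counterpart reaches close to the catalytic centre, was measured at 57.2, 62.8 and 60.7 CPM in WT mice and at 51.3, 45.1 and 49.2 CPM in Ube3a m-/p+ mice. Ube3a m-/p+ mouse 1 was again the nearest to WT. Its log2 fold change was −0.30 ± 0.10 (adjusted p = 0.0839, edgeR) and −0.19 after the correction (adjusted p = 0.297, edgeR). *Mrpl50*, a mitochondrion-specific protein, was measured at 32.5, 34.8 and 39.9 CPM in WT mice and at 28.6, 29.0 and 32.1 CPM in Ube3a m-/p+ mice. The highest Ube3a m-/p+ value lay just under the lowest WT value, and the log2 fold change was −0.23 ± 0.11 (adjusted p = 0.214, edgeR) before and −0.07 after the correction.

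**Figure D2:**
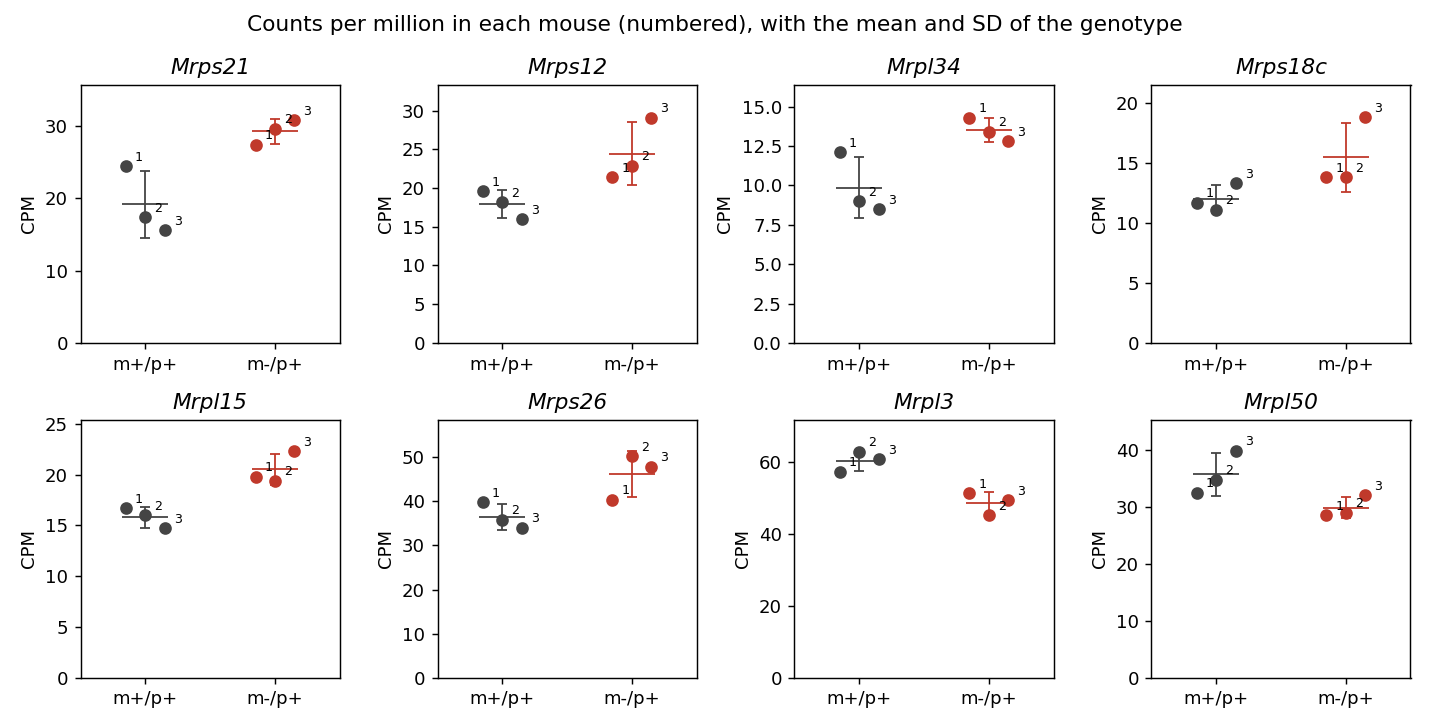
Each panel shows the CPM (y axis, starting at 0) of 1 gene in the 3 m+/p+ and 3 m-/p+ mice (points, numbered by mouse), with a horizontal line for the mean and bars for the SD. In the first 6 genes every m-/p+ point lies above every m+/p+ point, the nearest points being 27.4 against 24.4 CPM for *Mrps21* and 40.4 against 39.8 CPM for *Mrps26*, and in *Mrpl3* and *Mrpl50* every m-/p+ point lies below.

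*Mrpl12* and *Mrpl58* have known roles beyond the frame of the ribosome. The *Mrpl12* protein forms the stalk that recruits translation factors and also binds the mitochondrial RNA polymerase. It was measured at 32.6, 35.5 and 30.3 CPM in WT mice and at 33.7, 38.1 and 46.6 CPM in Ube3a m-/p+ mice. Ube3a m-/p+ mouse 1 fell inside the WT range, the log2 fold change was 0.29 ± 0.13 (adjusted p = 0.182, edgeR), and it was 0.04 after the correction. *Mrpl58*, also known as *Ict1*, is a peptidyl-tRNA hydrolase that frees stalled ribosomes and was incorporated into the large subunit. Its levels of 31.2, 31.9 and 41.0 CPM in WT mice and 28.9, 35.1 and 36.2 CPM in Ube3a m-/p+ mice overlapped, and the genotypes differed by −0.03 ± 0.13 on the log2 scale (adjusted p = 0.911, edgeR).

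Among the genes with the lowest levels per kilobase, *Mrpl32*, whose protein is matured by the m-AAA protease before it joins the ribosome, had a log2 fold change of 0.27 ± 0.16. *Mrpl17*, *Mrps35* and *Mrpl47* were at −0.01 ± 0.11, 0.08 ± 0.17 and −0.18 ± 0.19. All 4 genes overlapped between the genotypes, and each change was within 2 standard errors. After the correction the 4 values were 0.46, 0.21, 0.24 and −0.06. *Mrps36*, outside the ribosome, was measured at 11.5, 8.41 and 5.90 CPM in WT mice and at 10.3, 10.8 and 13.7 CPM in Ube3a m-/p+ mice. WT mouse 1 lay within the Ube3a m-/p+ values, and the log2 fold change was 0.44 ± 0.22 (adjusted p = 0.229, edgeR).

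Summed by subunit, the large-subunit genes reached 1350, 1301 and 1307 CPM in WT mice and 1376, 1454 and 1512 CPM in Ube3a m-/p+ mice. The groups did not overlap, with the mice numbered 1 closest to each other. The small-subunit genes reached 614.6, 634.7 and 642.9 CPM in WT mice and 632.8, 684.4 and 705 CPM in Ube3a m-/p+ mice. Here Ube3a m-/p+ mouse 1 fell inside the WT range. The ratio of the small to the large sum was 0.455, 0.488 and 0.492 in WT mice and 0.46, 0.471 and 0.466 in Ube3a m-/p+ mice, so the genotypes overlapped in the balance between subunits.

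**Figure D3:**
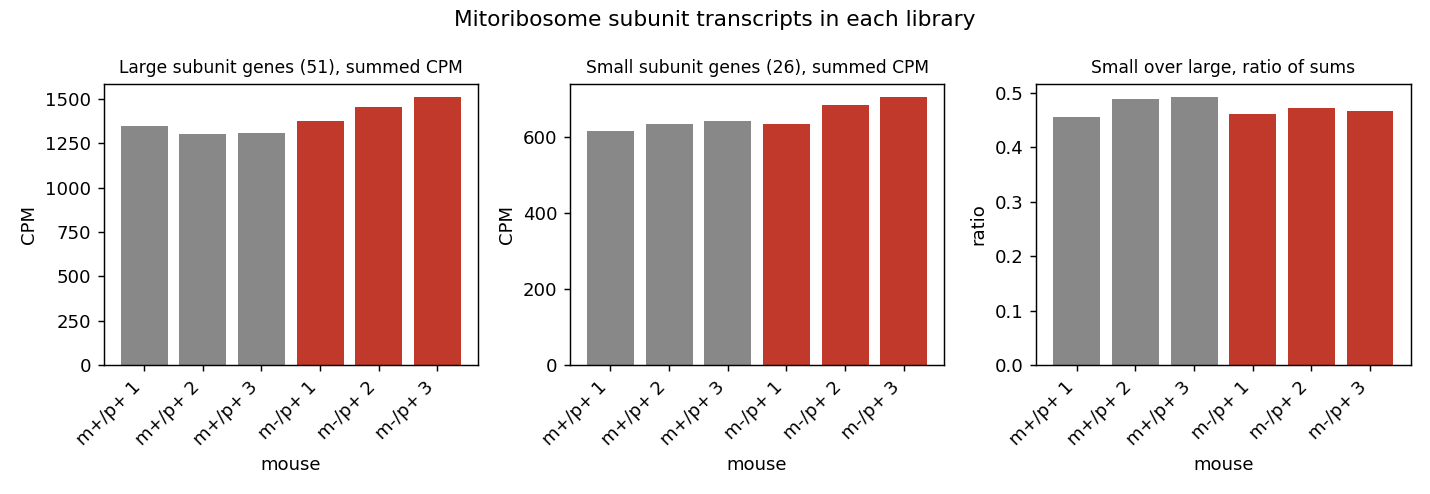
Bars give, for each mouse (x axis), the summed CPM of the 51 large-subunit genes, the summed CPM of the 26 small-subunit genes and the ratio of the small to the large sum, with m+/p+ mice in grey and m-/p+ mice in red and all y axes starting at 0. The large sums are higher in m-/p+ mice 2 and 3, at 1454 and 1512 CPM, than in any other mouse, and the ratios of the m-/p+ mice, 0.46 to 0.471, lie inside the m+/p+ range of 0.455 to 0.492.

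The median log2 fold change was 0.203 over the 51 large-subunit genes, of which 39 were positive, and 0.079 over the 26 small-subunit genes, of which 22 were positive. At an unadjusted p below 0.05 (edgeR), 15 large-subunit genes were higher and 1 was lower, and 6 small-subunit genes were higher and none lower, against 12.2% higher and 12.4% lower over all genes. After the correction the order of the medians was reversed, at 0.092 for the large and 0.130 for the small subunit. The median was 0.152 over the 46 genes with a bacterial counterpart and 0.161 over the 31 mitochondrion-specific genes. As counted, it was highest for the mitochondrion-specific proteins of the large subunit, at 0.231 over 21 genes, and lowest for those of the small subunit, at 0.057 over 10 genes. After the correction these values were 0.103 and 0.009, and the highest was that of the 16 small-subunit genes with a bacterial counterpart, at 0.184. The summed level of these 16 genes was 308.7, 300 and 311.5 CPM in WT mice. It was 319, 350.9 and 375.9 CPM in Ube3a m-/p+ mice, without overlap and with mouse 1 nearest to WT. The 10 mitochondrion-specific small-subunit genes summed to 305.9, 334.6 and 331.4 CPM in WT mice. In Ube3a m-/p+ mice they summed to 313.8, 333.6 and 329.1 CPM, all inside the WT range.

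GC content moved with the fold changes of the 78 genes, as it did across all genes. The genes were ordered by the GC content of their longest transcript and divided into groups of 26. The median log2 fold change was 0.068 for the group at 38.6% to 46.9% GC, 0.134 at 46.9% to 52.2% and 0.281 at 52.5% to 60.4%. All 26 genes of the group richest in GC were positive, against 20 and 16 in the others. Spearman's correlation with GC content across genes was 0.396 over the 78 genes and 0.622 over the 14201 genes with an annotated transcript, and that with transcript length was −0.366 and −0.28. These points share the same 6 libraries, and genes are not replicates.

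With GC content and length corrected in each library, the 78 genes had a median log2 fold change of 0.100 against −0.010 over all genes, and 54 were positive. The sign changed for 20 genes. At an unadjusted p below 0.05, 15 were higher and 1 lower in the corrected edgeR fit. Of the 14201 genes in that fit, 975 were higher and 1042 lower. The correlation with GC content over all genes fell to 0.0176, but over the 78 genes it turned to −0.406, and the medians of the groups, from the poorest to the richest in GC, became 0.249, 0.077 and 0.051. The correction therefore removed the trend over all genes and inverted it among these genes.

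**Figure D4:**
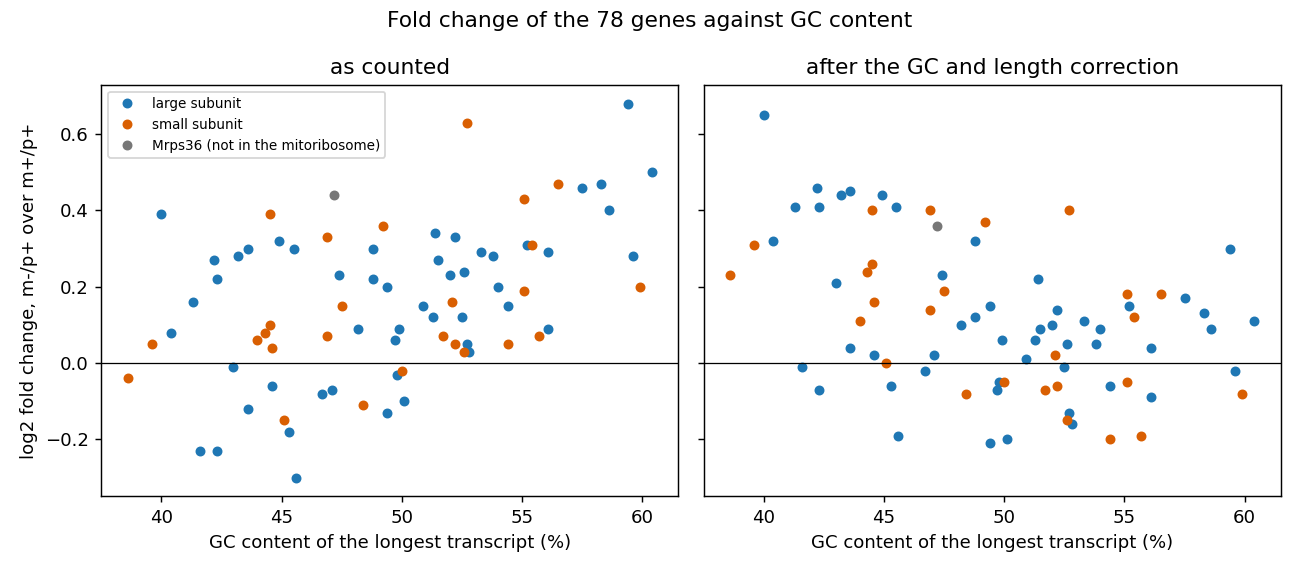
The log2 fold change (y axis, Ube3a m-/p+ over Ube3a m+/p+) of each of the 78 genes is plotted against the GC content of its longest transcript (x axis, %), as counted (left) and after the GC and length correction (right), with colours marking the subunit. The points rise with GC content on the left (Spearman's correlation 0.396) and fall on the right (−0.406), and the highest point on the right is *Mrpl15* at 40.0% GC and 0.65.

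Many of these genes share their locus or their sequence with other genes. Pseudogenes with at least 95% identity over at least 150 bp of the transcript exist for 18 of the 78 genes, and the median log2 fold change was 0.274 over these. Exons of another gene lie on the opposite strand at 28 genes, with a median of 0.172, and the sources used here do not give a strand setting for the counting. At *Mrps25*, *Nr2c2* exons cover 4590 of 6576 exonic bases on the opposite strand, and its log2 fold change was −0.15 ± 0.09. At *Mrpl43*, with 507 bp of *Twnk* opposite, it was 0.34 ± 0.12. After the correction these values were 0 and 0.22. Over the 35 genes with neither a copy nor an overlap the median was 0.099 and 27 were positive. The medians after the correction were 0.338 for the genes with a pseudogene copy, 0.031 for those with exons opposite and 0.094 for those with neither. The part of shared reads in these values was not tested.

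Mitochondrial ribosomal protein genes often start back to back with a neighbour on the other strand, sharing a short bidirectional promoter. Such a neighbour, with its start at most 1000 bp upstream or slightly inside the gene, was found for 23 of the 78 genes. The distances ran from −197 bp for *Mrpl27*, where the starts overlap, to 935 bp for *Mrpl41*. Pairs that overlap further at their starts, such as *Mrpl46* and *Mrps11*, were not counted as neighbours. The distance between the starts was 172 bp for *Mrps12* and *Sars2*, the mitochondrial seryl-tRNA synthetase gene, and 59 bp for *Mrpl49* and *Fau*. The median log2 fold change was 0.231 over the 23 genes, 0.093 over the 55 genes without such a neighbour and 0.065 over the 22 neighbours that could be tested. After the correction the 3 medians were 0.110, 0.094 and −0.024. *Mrps12* at 0.47 ± 0.14 stood beside *Sars2* at 0.15 ± 0.19, and *Mrpl54* at 0.50 ± 0.21 beside *Apba3* at 0.36 ± 0.15. After the correction *Sars2* was at −0.13 and *Apba3* at 0.09. *Mrpl36*, with 17.1, 19.3 and 20.0 CPM in WT and 20.7, 20.9 and 20.2 CPM in Ube3a m-/p+ mice, had a log2 fold change of 0.15 ± 0.12. Its partner *Ndufs6*, a complex I subunit gene, was measured at 19.4, 16.1 and 18.1 CPM in WT and at 17, 37.1 and 30 CPM in Ube3a m-/p+ mice, with a log2 fold change of 0.68 ± 0.25. None of the 22 neighbours was called.

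Promoters of the family are known for binding sites of NRF1 and of ETS factors such as GABP, the nuclear regulators of mitochondrial biogenesis. RefSeq promoter sequences (GRCm38.p6, from 250 bases before to 50 bases after the gene start) matched 69 of the 78 genes by symbol. The ETS core CCGGAAG was found on either strand in 26 of them, 37.7%, against 18.1% of the promoters of all tested genes and 9.93% of all promoters. The NRF1 motif, GCGC and TGCGC separated by any base, was found in 13, or 18.8%, against 10.7% and 5.19%. The YY1 motif AAGATGGC was found in 12, or 17.4%, against 4.78% and 3.19%. At least 1 of these was present in 43 promoters. The median log2 fold change was 0.23 over the 26 genes with the ETS core and 0.12 over those without it, and 0.11 and 0.10 after the correction. With and without the NRF1 motif it was 0.23 and 0.15, and 0.23 and 0.09 after the correction. With the YY1 motif it was 0.235 and without it 0.12, and 0.135 and 0.10 after the correction.

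The windows around the ETS core are shown for the genes with the largest changes without overlap between the genotypes that hold it, 5′ to 3′ on the strand of the gene, with the core or its reverse complement CTTCCGG in capitals. The core appears in genes higher in Ube3a m-/p+ mice as well as in *Mrpl3*, which was lower.
Mrps21, chr3:95871480-95871506, minus strand: gtagcttccgCTTCCGGtccgcagaga
Mrps12, chr7:28741804-28741830, minus strand: aggaggaaccCCGGAAGgggctggagg
Mrpl34, chr8:71464879-71464905, plus strand: actacagctcCCGGAAGgccccgcggc
Mrps18c, chr5:100798593-100798619, plus strand: ggtcacgtgaCTTCCGGcccgggaagc
Mrps26, chr2:130563733-130563759, plus strand: tccgcggccaCTTCCGGgccgggcgca
Mrpl3, chr9:105053239-105053265, plus strand: gagaaacggaCCGGAAGtggcccggct

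The other proteins of the mitochondrial ribosome, which carry no *Mrp* symbol, varied among themselves. *Aurkaip1*, a small-subunit protein, was measured at 30.9, 32.5 and 31.8 CPM in WT and at 37.4, 41.8 and 41.7 CPM in Ube3a m-/p+ mice. *Gadd45gip1*, a large-subunit protein near the exit of the nascent chain, was measured at 30, 29.3 and 29.1 CPM in WT and at 33.8, 38.1 and 38 CPM in Ube3a m-/p+ mice. Neither gene overlapped between the genotypes, and the log2 fold changes were 0.37 (adjusted p = 0.0632, edgeR) and 0.33 (adjusted p = 0.0807, edgeR). After the correction they were 0.11 and 0.19. *Chchd1* was at 0.29, *Dap3*, a GTP-binding protein of the small subunit, at −0.06, and *Ptcd3*, a pentatricopeptide protein, at −0.23, and after the correction these 3 were at 0.19, −0.08 and −0.04. None of these 5 genes was called.

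The genes that assemble, load and serve the mitochondrial ribosome had medians closer to 0. Of 24 assembly and rRNA modification genes none was called, 12 were positive, none was higher and 2 were lower at an unadjusted p below 0.05 (edgeR), and the median log2 fold change was 0.020. The smallest p was that of *Nsun4*, a methyltransferase of the small-subunit rRNA, at −0.44 (adjusted p = 0.143, edgeR). Among 15 translation factors the median was 0.028, with *Tufm*, the mitochondrial elongation factor Tu, at 0.35 (adjusted p = 0.103, edgeR). Over 17 mitochondrial aminoacyl-tRNA synthetases it was −0.009, with *Aars2*, for alanine, at 0.39 (adjusted p = 0.111, edgeR). Transcription and replication of mitochondrial DNA had a median of 0.050 over 8 genes, with the helicase gene *Twnk* at 0.22 (adjusted p = 0.213, edgeR). None of the genes in these groups was called. After the correction *Nsun4* was at −0.47, *Tufm* and *Aars2* at 0.15 and *Twnk* at 0.12.

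The 8 regulators of mitochondrial biogenesis had a median of −0.026, 2 were positive, and *Gabpb1*, a GABP subunit gene, was at −0.31 (adjusted p = 0.131, edgeR). The 13 import and outer-membrane genes had a median of 0.044, with the receptor gene *Tomm70a* at −0.28 (adjusted p = 0.0688, edgeR). After the correction *Gabpb1* was at −0.20 and *Tomm70a* at −0.02. The nuclear respiratory chain subunits and the cytosolic ribosomal proteins had higher medians. Over 79 respiratory chain genes the median was 0.215, 67 were positive and 3 were called higher. Over 78 tested cytosolic ribosomal protein genes it was 0.226, 65 were positive and 10 were called higher. Of all genes tested 1.02% were called higher. No gene of either group was called lower. After the correction the medians were 0.09 and 0.117, and 2 respiratory chain and 6 cytosolic ribosomal protein genes were called, against 0.648% of all genes. The median lengths of their longest transcripts were 1001 and 1076.5 bases, against 1866.5 for the *Mrpl* and *Mrps* genes and 3456 for all genes.

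**Figure D5:**
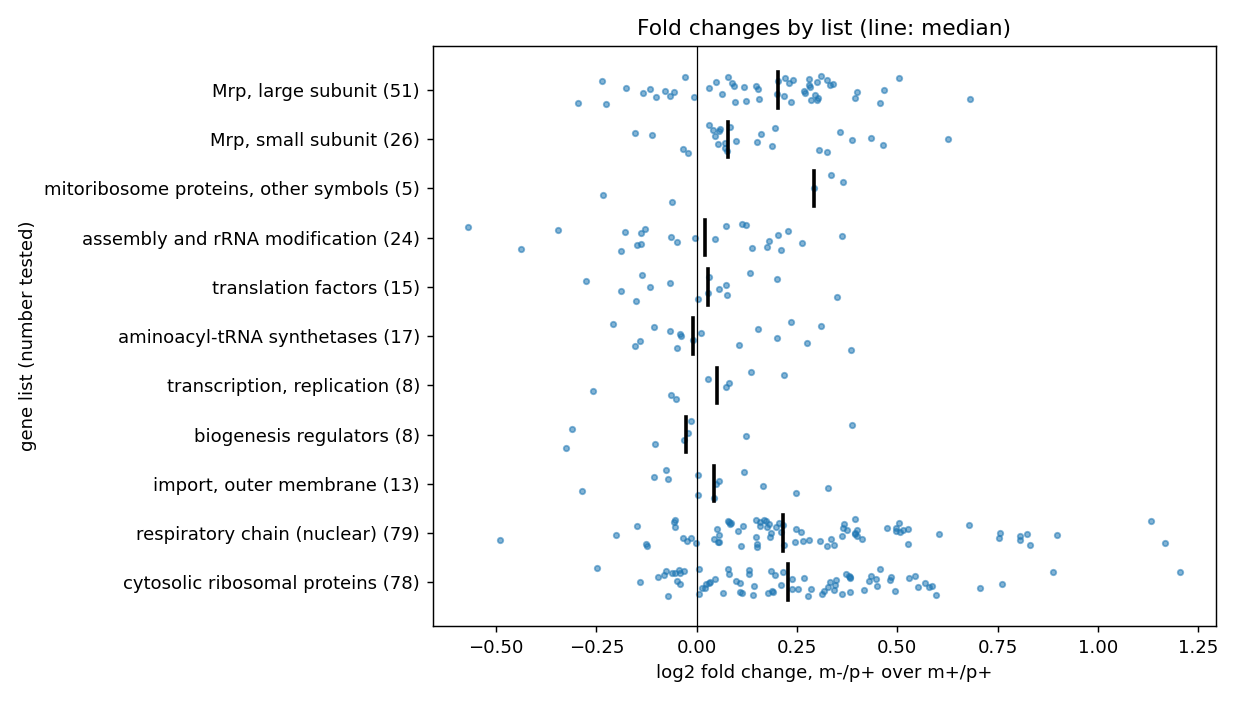
Each point is the log2 fold change (x axis, Ube3a m-/p+ over Ube3a m+/p+) of 1 gene, grouped by list (y axis, with the number of genes tested), and vertical lines give the medians. The medians are 0.203 and 0.079 for the large and small subunits, 0.215 for respiratory chain genes and 0.226 for cytosolic ribosomal proteins, and those of the assembly, translation factor, synthetase, transcription, biogenesis and import lists lie between −0.026 and 0.050.

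Markers of the cells of the hippocampus were read for their cellular makeup. The 8 hippocampal neuron markers summed to 4023, 4020 and 4025 CPM in WT and 3837, 3893 and 4242 CPM in Ube3a m-/p+ mice, and none was called. Of the 8, 2 were positive and 6 negative. The abundant *Slc17a7* and *Snap25* moved apart, at 0.35 and −0.23, each without overlap between the genotypes. *Wfs1*, at −0.34, did not overlap either, and the other 5 markers did. After the correction *Slc17a7* and *Snap25* were at 0.18 and 0.07. *Wfs1* was then at −0.53 (adjusted p = 0.0566, edgeR). The 5 oligodendrocyte markers summed to 7534 to 7653 CPM in WT and 6229 to 7146 CPM in Ube3a m-/p+ mice, the 5 microglia markers to 220.4 to 241.2 and 199.7 to 212.2 CPM, and the 4 endothelial markers to 210.4 to 212.1 and 186.2 to 192.8 CPM. Of the latter 3 lists no gene was called, although each sum was lower in every Ube3a m-/p+ mouse. Single markers were mixed, with 2 of 5 oligodendrocyte, 2 of 5 microglia and 1 of 4 endothelial markers positive. Among the positive ones were *Mag* at 0.16, *Tmem119* at 0.22 and *Cldn5* at 0.46. After the correction they were at −0.05, −0.03 and 0.14. Astrocyte sums, at 1446 to 1590 and 1373 to 1470 CPM, overlapped, and the 5 interneuron markers summed to 561.7 to 600.4 and 484.6 to 533 CPM. The precursor marker *Pdgfra* (log2 fold change −0.43, adjusted p = 0.0466, edgeR) and the pericyte marker *Rgs5* (−0.51, adjusted p = 0.0387, edgeR) were called lower. The other markers of these lists were not called, with *Cspg4* at −0.05 and *Sox10* at 0.31 among precursor markers, and *Pdgfrb* at 0.05 and *Kcnj8* at 0.58 among pericyte markers. *Sox10* and *Kcnj8* were higher in every Ube3a m-/p+ mouse than in every WT mouse.

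Markers of tissue at the border of the hippocampus had higher sums, choroid plexus apart. The 4 ependymal markers summed to 24.78 to 26.33 CPM in WT and 35.28 to 42.95 CPM in Ube3a m-/p+ mice, with *Foxj1*, the regulator of motile cilia, called at 1.01 (adjusted p = 0.0361, edgeR). The 8 meningeal and fibroblast markers summed to 233.7 to 329.2 CPM in WT and 334.5 to 555.5 CPM in Ube3a m-/p+ mice, with *Col1a1* called at 0.73 (adjusted p = 0.0416, edgeR). Most of this sum was *Ptgds*, with means of 186 CPM in WT and 296 CPM in Ube3a m-/p+ mice. All 8 were positive, from 0.02 for *Lum* to 0.74 for *Slc22a6*, and 4 of them overlapped between the genotypes. The calls of *Foxj1* and *Col1a1*, like those of *Pdgfra* and *Rgs5*, were lost without any 1 of the 4 mice numbered 2 and 3, where 0 to 2 of all genes were called. The GC and length correction also ended the calls of *Col1a1* (0.55, adjusted p = 0.075, edgeR) and *Rgs5* (−0.29, adjusted p = 0.075, edgeR). The 5 choroid plexus markers ranged from 99.36 to 2170 CPM in WT and from 104.7 to 2260 CPM in Ube3a m-/p+ mice. Ube3a m-/p+ mouse 3, which had the highest summed level of *Mrpl* and *Mrps* genes, had a low choroid plexus sum of 104.7 CPM. The part of the other cell types in the values of the *Mrpl* and *Mrps* genes was not tested.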

How the data were processed

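Hippocampal RNA of 6 mice (3 per genotype) was sequenced. The authors deposited raw counts per gene symbol, 1 file per mouse. The submitters' processing notes name STAR 2.7.4a, HTSeq and mm10. The annotation and the strand setting are not given in the sources used here. Lines for reads on no gene (54.1% to 55% of reads), ambiguous reads and reads with several alignments were left out.

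Counts were analysed in R 4.3.3 with edgeR 4.0.16: filterByExpr, TMM, robust two-sided quasi-likelihood F test on genotype alone, adjusted by Benjamini-Hochberg over the 14445 genes kept. The standard error was derived from the F statistic. The labels do not say whether libraries came from separate litters or batches. An exact permutation test of 3 against 3 mice cannot go below p = 0.1 and was not used for calls.

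GC content and transcript length were corrected per library with splines (5 degrees of freedom each, longest GENCODE M21 transcript, 14201 genes, or 98.3% of those tested). Alternatives were DESeq2 1.42.0, other scalings and filters, a replicate block and leaving out each mouse. The code was tested on simulated data.

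Named genes were the called genes, the largest changes without overlap, the highest and lowest levels per kilobase, genes of known role and, in other lists, the called gene or the smallest p. *Mrpl14*, *Mrpl54*, *Mrpl36*, *Mrps25*, *Mrps36*, *Mrpl38* and *Mrpl43*, as well as the partners of back-to-back genes, were named after their values were seen. So were the other markers of precursors, pericytes, meninges and fibroblasts and the single markers of neurons, oligodendrocytes, microglia and endothelium. The *Mrpl* and *Mrps* genes and the other lists were chosen with earlier results of these data known.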

Additional observations from a re-analysis of the deposited data

How the results depend on the processing

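The count of called *Mrpl* and *Mrps* genes, 1 as reported, was 1 with library size only, upper-quartile factors, DESeq2 size factors in edgeR, a minimum of 10 counts in every library, no fold threshold and the GC and length correction, although there *Mrpl15* replaced *Mrps21*. It was 2 in DESeq2 (*Mrps21* and *Mrpl48*; 2.56%, against 6.69% of all genes), 6 without the filter on low counts (7.69% against 6.1%) and 22 at an unadjusted p (28.2% against 19.6%), where 1.28% against 2.01% were called as reported. Leaving out 1 mouse gave 0 to 13: 13 without WT mouse 1 (16.7% against 17.6% of all genes), 13 without Ube3a m-/p+ mouse 1 (16.7% against 12.5%), 8 of them in both (61.5% of each list), and 0 in edgeR without any other single mouse (0 to 2 of all genes), with 10 to 14 genes higher and 0 to 2 lower at an unadjusted p below 0.05. With the replicate number as a block it was 0 in edgeR, as for all genes. At an unadjusted p below 0.05 in that fit, 14 were higher and 1 lower. With the block and the GC correction together it was 0, against 13 of all genes called. In that fit 14 were higher and 0 lower at an unadjusted p below 0.05. The share of all genes at an unadjusted p was not computed for the fits with a block or with 1 mouse left out. Deviations from the genotype mean were negatively correlated between same-numbered mice (−0.285, −0.177 and −0.311). These correlations cannot show whether the numbers pair the mice, because the genotype means differ in GC trend. Before such centring the mice numbered 1 had similar GC trends (0.0455 and 0.0588). The median log2 fold change ran from 0.100 with the GC correction to 0.216 without Ube3a m-/p+ mouse 1, and was 0.129 without Ube3a m-/p+ mouse 3. *Ube3a* was at −0.57 with the replicate block (adjusted p = 0.216, edgeR), −0.20 with the GC correction, −0.19 with both, and −0.73 to −0.48 with 1 mouse left out. Signs turned for *Mrpl17* (0.01 with upper-quartile factors or no filter, 0.21 with the GC correction with or without the block, −0.05 to 0.03 with 1 mouse left out), *Mrps25* (0 with the GC correction), *Mrpl38* (−0.02 with the GC correction, with or without the block), *Mrps35* (−0.06 without WT mouse 1, up to 0.19 without WT mouse 3) and *Mrpl58* (−0.10 to 0.10 with 1 mouse left out, above 0 without WT mouse 3 or Ube3a m-/p+ mouse 1). The cause of these changes was not tested. The lowest count in any library was 43, for *Mrps36*. As reported, the median log2 fold change was 0.155, close to the median standard error of 0.13. It lay under the fold threshold of 1.2, so a single gene with a change of that size could not be called by the rule used.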
